A study of Rattus norvegicus with 24 samples.

Results

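Calcineurin, the NFAT transcription factors and the calcineurin regulator Rcan1 were examined in rat tibialis anterior muscle during daily resistance training. The 7 genes were chosen by symbol: Ppp3ca and Ppp3cb, Rcan1, and Nfatc1, Nfatc2, Nfatc3 and Nfatc4. They account for 10 of the 20027 transcripts and 7 of the 15273 genes analysed. Tibialis anterior was taken from 12 adult male Wistar rats in 4 groups of 3, which trained for 2, 10, 20 or 30 days. The left leg was trained once a day by SpillOver stimulation, in which an implanted pulse generator contracts the dorsiflexors against a smaller contraction of the opposing plantarflexors. The right tibialis anterior of the same rat received no stimulation and served as the contralateral control. Both muscles were collected 1 h after the last session, so each trained value joins the acute response to that session with the effect of earlier sessions. The control is an internal one: it shares the animal, its implant and its circulation with the trained muscle. The 12 contralateral muscles were pooled as the control group.

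Calcineurin is a phosphatase that is switched on by calcium and calmodulin. It consists of a catalytic subunit, encoded in muscle mainly by Ppp3ca and Ppp3cb, and a regulatory subunit encoded by Ppp3r1. Active calcineurin removes phosphates from the cytoplasmic NFAT proteins, which then enter the nucleus and act with partners such as AP-1 and MEF2, while kinases return them to the cytoplasm. Rcan1 protein binds calcineurin and restrains it, and the short form of Rcan1 is itself a known NFAT target, so its mRNA is widely used as a readout of the pathway. In skeletal muscle the pathway is known for its part in slow fibre gene expression and in the response to activity. The measurements here are mRNA levels. Phosphatase activity and the location of NFAT proteins were not measured.

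Values are given as normalised transcript abundance, a TPM-type quantity scaled for transcript length, rescaled between muscles and summed over the transcripts of a gene. Differences are given as log2(value + 1) with the standard error of a limma fit, and adjusted p-values are Benjamini-Hochberg values over the 11196 genes tested. A gene passed the test at an adjusted p under 0.05. These values keep no read count, so the depth behind a single value cannot be given. Mitochondrially encoded transcripts took 27.8% to 43.7% of the total in the contralateral muscles, 23.4% to 28.5% in the trained muscles at 2 and 10 days and 39.9% to 43.9% at 30 days. The muscle fibre markers Ckm, Acta1, Tnnt3 and Mylpf were abundant in all muscles, with a summed value of 42495 to 76671. All 4 fibroblast and all 4 macrophage markers passed as higher at 10, 20 and 30 days, and 3 of 4 of each at 2 days. With the animal as a block, the fibroblast marker Pdgfra did not pass at 20 and 30 days (limma adjusted p = 0.0523 and 0.177), and all 4 of each passed at 2 days. Against the pooled control, 15.4%, 15.6%, 11.7% and 11.1% of all genes tested passed as higher at 2, 10, 20 and 30 days. The summed fibroblast markers lay between 52.2 and 169 in the contralateral and between 155 and 509 in the trained muscles. The summed macrophage markers lay between 3.73 and 11.01 and between 11.8 and 32.2, in the same order. Of 4 genes listed for T cells Cd4 alone was analysed, at 0.195 to 2.02 in contralateral and 1.44 to 6.73 in trained muscles. Cd3e, Cd3d and Cd3g were absent from the values. Cd4 by itself does not identify T cells, so whether T cells differed cannot be told. NFAT genes are also expressed in immune and connective tissue cells, and the part of these cells in the values below was not tested. In whole muscle, fewer cells of a type and less RNA per cell cannot be told apart.

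Of the 7 genes, 6 passed the filter on low values and were tested, and Nfatc4 did not. Rcan1 rose at every time point. Ppp3cb, which encodes the beta catalytic subunit, fell at every time point. Nfatc3 fell at 2, 10 and 20 days and Ppp3ca fell at 20 and 30 days, in each case by less than Ppp3cb at the same time. Nfatc1 and Nfatc2 passed at no single time point. Thus 3, 3, 4 and 3 of the 6 genes passed in order of time, where 28.9%, 28.9%, 21.4% and 20.6% of all genes tested passed. The size of the Rcan1 difference and the opposite direction of Ppp3cb are visible in the plot of values by muscle.

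**Figure D1:**
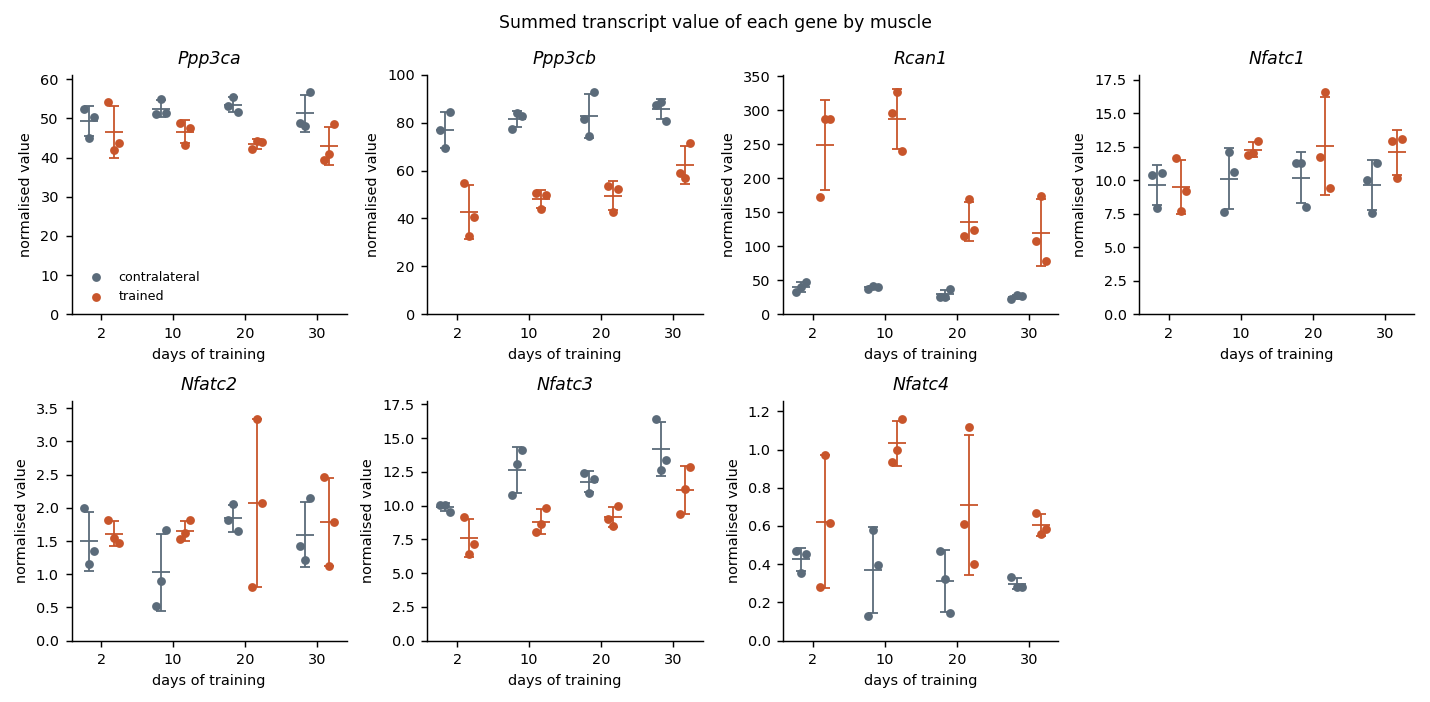
Normalised value (summed transcripts, linear axis) of each gene in the 24 muscles by days of training. Points are single muscles, with the mean as a horizontal bar and the SD of 3 muscles as error bars, grey for contralateral and orange for trained. The trained Rcan1 values, from 78.0 to 326, all lie above the contralateral range of 21.9 to 47.5, and Ppp3cb in trained muscles lies below the contralateral range except for 1 muscle at 30 days.

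**Figure D2:**
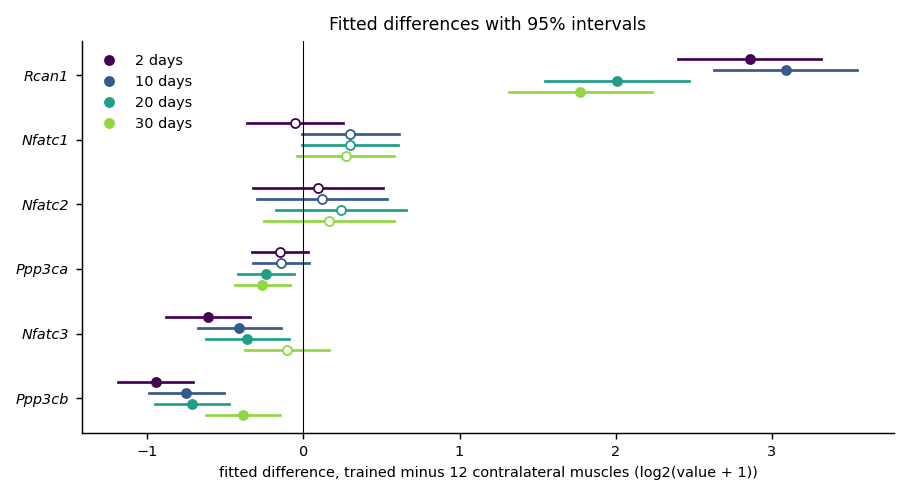
Fitted log2(value + 1) difference of each trained group (n = 3) from the 12 contralateral muscles for the 6 genes tested, with 95% intervals. Filled points passed at an adjusted p under 0.05. Rcan1 lies far to the right at all times, and Ppp3cb to the left with its interval nearest 0 at 30 days.

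Rcan1 was represented by 1 transcript, Rcan1-201, at chr11:32539683-32550540 on the minus strand of Rnor_6.0, a span of 10858 bp. In the contralateral muscles it ranged from 21.9 to 47.5 with a median of 34.5. After 2 days of training the 3 muscles stood at 173, 287 and 287, and after 10 days at 296, 326 and 240.0. After 20 days they stood at 116, 169 and 123, and after 30 days at 108, 174 and 78.0. No trained muscle overlapped with any contralateral muscle. The group means of 249 ± 65.8, 287 ± 43.8, 136 ± 28.7 and 120.1 ± 49.1 (SD, n = 3) were 7.44, 8.58, 4.06 and 3.58 times the contralateral mean of 33.5 ± 8.17 (SD, n = 12). The fitted differences were 2.86, 3.09, 2.01 and 1.77 (SE 0.22 each, limma adjusted p = 1.03e-09, 2.92e-10, 4.35e-07 and 3.93e-06). Each of the 12 rats had more Rcan1 mRNA in the trained than in its own contralateral muscle, by 1.52 to 2.98 with a median of 2.57. The smallest within-rat difference belonged to replicate 3 at 30 days and the largest to replicate 1 at 10 days. In the deposited gene-level table, which holds Rcan1 on another scale and was not rescaled, the differences were 2.91, 3.18, 1.82 and 1.22, and all passed.

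The letters in front of the Rcan1 start are shown because NFAT binding is known upstream of the short form and because mRNAs of AP-1 subunits were measured in the same muscles. The 250 bases before the RefSeq start lie at chr11:45118237-45118486 on the minus strand of GRCr8, a later build than the one used for the expression values. The start lies 10114 bp from the 3′ end of a gene of 79943 bp in that build. The transcript of 10858 bp in the expression table was not aligned between the builds. The same window of Ppp3cb, which fell, is given for comparison and lies at chr15:3809012-3809261 on the plus strand. Capitals mark the letters GGAAA, the core that NFAT proteins bind, TGACTCA, an AP-1 site, TGACGTCA, a cAMP response element, and TATAAA, each on either strand and written 5′ to 3′.
Rcan1: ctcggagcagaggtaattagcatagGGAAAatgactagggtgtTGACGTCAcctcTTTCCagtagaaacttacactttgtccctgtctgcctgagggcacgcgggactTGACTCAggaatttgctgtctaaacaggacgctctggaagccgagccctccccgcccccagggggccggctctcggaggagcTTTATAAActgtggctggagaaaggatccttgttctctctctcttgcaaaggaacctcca
Ppp3cb: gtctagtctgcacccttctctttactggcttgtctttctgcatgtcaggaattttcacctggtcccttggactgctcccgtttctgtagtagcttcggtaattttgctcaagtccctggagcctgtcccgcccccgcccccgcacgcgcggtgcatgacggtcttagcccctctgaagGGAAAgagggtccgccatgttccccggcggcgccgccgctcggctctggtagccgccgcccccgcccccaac

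The Rcan1 window held 2 matches to GGAAA, beginning 225 and 195 bases before the start, 1 to TGACGTCA at 207, 1 to TGACTCA at 142, and 2 overlapping matches to TATAAA at 60 and 58. The GGAAA letters occurred at least once in 56.9% of the 33469 promoter windows of this length and at least 2 times in 22.9%. TGACTCA occurred in 4.05%, TGACGTCA in 1.59% and TATAAA in 12.9%. Windows were at hand for 4 of the 7 genes. Ppp3cb held 1 GGAAA, 72 bases before its start, and none of the other letters, and Ppp3ca and Nfatc2 held none of the 4. The motifs other than GGAAA were chosen after the Rcan1 window had been read. A match describes letters and says nothing about binding in these muscles.

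Ppp3cb-201, at chr15:4209703-4236896 on the plus strand of Rnor_6.0, was more abundant per length than Ppp3ca in every contralateral muscle. There it ranged from 69.4 to 92.7 with a median of 82.0. The trained muscles stood at 55.0, 32.7 and 40.5 after 2 days, at 50.7, 44.0 and 49.9 after 10 days and at 53.7, 42.7 and 52.2 after 20 days. After 30 days they stood at 58.8, 57.0 and 71.6, and the last of these was the one trained muscle within the contralateral range. The trained means were 52.3%, 59.0%, 60.6% and 76.5% of the contralateral mean. The fitted differences were −0.95, −0.75, −0.71 and −0.38 (SE 0.11 each, limma adjusted p = 1.20e-06, 2.38e-05, 7.04e-05 and 0.0187). All 12 rats had less Ppp3cb mRNA in the trained muscle, with differences of −1.06 to −0.17. The 30 day difference did not pass against the 3 contralateral muscles of the same time (−0.45, adjusted p = 0.0601) or without trained replicate 1 (adjusted p = 0.0913) or 2 (adjusted p = 0.126). In the fit with the animal as a block it was −0.45 (adjusted p = 0.0488). As deposited, without rescaling, it was −0.60 (adjusted p = 0.00238). In the gene-level table, which was not rescaled, the differences were −0.63, −0.43, −0.65 and −0.70 in order of time and all passed. The difference at 30 days was thus the smallest of the 4 in the rescaled sums and the largest of the 4 in the gene-level table. The 2 differ in normalisation, so this contrast does not compare like with like.

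Ppp3ca-201, at chr2:241909832-242184855 on the plus strand, encodes the alpha catalytic subunit. It ranged from 45.0 to 56.7 with a median of 51.5 in the contralateral muscles. The trained muscles stood at 54.2, 41.9 and 43.7 after 2 days, 48.9, 43.3 and 47.6 after 10 days, 42.1, 44.3 and 44.0 after 20 days and 39.5, 40.9 and 48.5 after 30 days. Trained muscles overlapped with contralateral muscles at 2, 10 and 30 days, and at 20 days all 3 lay below them. The fitted differences were −0.15, −0.14, −0.24 and −0.26 (SE 0.09 each, limma adjusted p = 0.195, 0.229, 0.0484 and 0.0330). The calls at 20 and 30 days were lost with the animal as a block (adjusted p = 0.0714 and 0.143), and the 20 day call was lost in 16 of 24 fits that each left out 1 muscle, among them every fit without a 20 day trained muscle. The 30 day call was lost without trained replicate 1 (adjusted p = 0.183) or 2 (adjusted p = 0.156). As deposited, without rescaling, the differences were −0.039, −0.025, −0.24 and −0.48 (adjusted p = 0.860, 0.923, 0.227 and 0.00937), and 30 days alone passed. Trained muscle was lower than its own contralateral muscle in 11 of 12 rats, with a median difference of −0.22.

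The balance of the catalytic subunits shifted. The log2 ratio of Ppp3ca to Ppp3cb was taken within 1 muscle with 1 added to each value. Scaling between muscles enters it only through that added 1. The ratio was −0.65 ± 0.14 in the contralateral and −0.15 ± 0.28 in the trained muscles (SD, n = 12). It was higher in the trained muscle in 11 of 12 rats, by 0.50 ± 0.27 (SD; exact two-sided permutation test over sign flips, p = 0.000977, adjusted p = 0.00146 over 6 ratios and shares). The mean shift was 0.77, 0.58, 0.44 and 0.20 in order of time, with 3 rats each, too few for a test at a single time point. The exception was replicate 3 at 30 days, at −0.046.

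**Figure D3:**
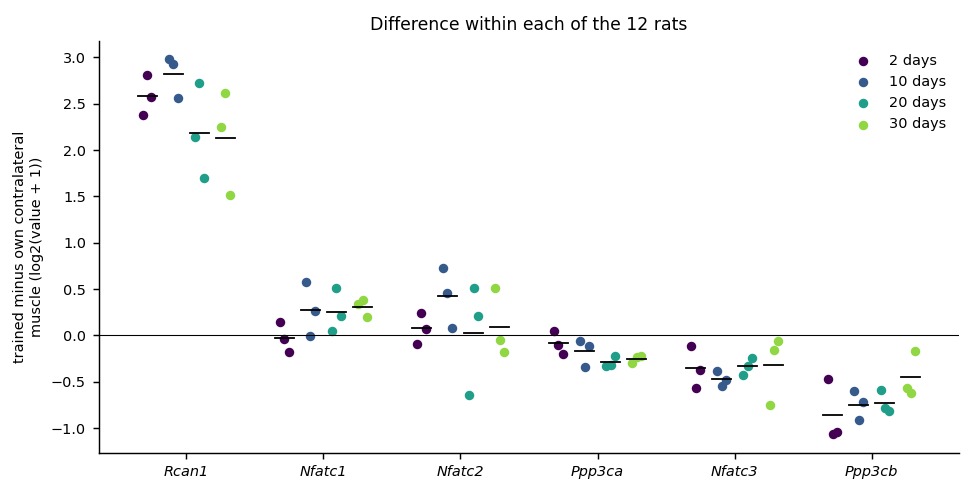
Difference in log2(value + 1) between the trained and the contralateral muscle of the same rat, for the 6 genes tested. Points are the 12 rats coloured by days of training, and black bars are means of 3 rats. All 12 points of Rcan1 lie above 0, from 1.52 to 2.98, and all 12 of Ppp3cb and of Nfatc3 lie below it.

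Among the NFAT genes, Nfatc3 was lower than in the pooled contralateral muscles at 2, 10 and 20 days. It has 2 transcripts, Nfatc3-201 at chr19:38039564-38111660 and Nfatc3-202 at chr19:38039729-38114004, and the second held most of the summed value. The sum ranged from 9.55 to 16.5 with a median of 12.2 in the contralateral muscles. The trained muscles stood at 9.18, 6.44 and 7.12 after 2 days, 8.01, 8.62 and 9.80 after 10 days, 8.997, 8.46 and 9.95 after 20 days and 9.36, 11.3 and 12.9 after 30 days. At 2 days every trained muscle lay below the contralateral range, and at 30 days 2 of 3 lay within it. The fitted differences were −0.61, −0.41, −0.36 and −0.10 (SE 0.13 each, limma adjusted p = 9.01e-04, 0.0193, 0.0487 and 0.619). Nfatc3-202 alone gave −0.56, −0.42, −0.34 and −0.08 (limma adjusted p over all transcripts = 0.00201, 0.0152, 0.0594 and 0.732), where 22.9%, 22.8%, 16.6% and 16% of transcripts passed. Nfatc3-201 passed at no time.

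All 12 rats had less Nfatc3 mRNA in the trained muscle, with differences of −0.75 to −0.056. With the animal as a block the differences were −0.35, −0.47, −0.33 and −0.32 (limma adjusted p = 0.0838, 0.0279, 0.117 and 0.156), so that 10 days alone passed. Against the contralateral muscles of the same time, the calls at 2 and 20 days were also lost (limma adjusted p = 0.0771 and 0.114). The contralateral muscles themselves stood at 9.55 to 10.1 at 2 days and at 12.7 to 16.5 at 30 days, although the 4 contralateral groups did not pass as different (limma F test, adjusted p = 0.458). The 10 day call was lost without trained replicate 1 (adjusted p = 0.121) or 2 (adjusted p = 0.0729). The 20 day call was lost in 14 of 24 fits that each left out 1 muscle, among them every fit without a 20 day trained muscle, and also with a pseudocount of 0.1 (adjusted p = 0.0535) and with no filter on low values (adjusted p = 0.0536). As deposited the differences were −0.51, −0.30, −0.36 and −0.31 (adjusted p = 0.00720, 0.120, 0.0718 and 0.0909), and 2 days alone passed.

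Nfatc1, the family member best known for activity in slow fibres, had a contralateral mean of 9.91 ± 1.66 beside 12.1 ± 2.00 for Nfatc3 on the same length-scaled level (SD, n = 12). It has 2 overlapping transcripts, Nfatc1-201 at chr18:77203525-77322691 and Nfatc1-202 at chr18:77250850-77317970. The sum ranged from 7.58 to 12.1 with a median of 10.5 in the contralateral muscles. The trained muscles stood at 11.7, 7.71 and 9.20 after 2 days, 11.9, 12.1 and 12.9 after 10 days, 11.8, 16.6 and 9.39 after 20 days and 12.98, 10.2 and 13.1 after 30 days. Trained and contralateral values overlapped at every time point. The differences were −0.053, 0.30, 0.30 and 0.27 (SE 0.15 each, limma adjusted p = 0.824, 0.140, 0.169 and 0.212), with a 95% interval at 10 days from −0.01 to 0.61. As deposited they were 0.051, 0.41, 0.29 and 0.065, and none passed (lowest adjusted p = 0.0961).

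Nfatc2-201, at chr3:165245238-165360293, is the transcript of the NFAT family member prominent in T cells. It ranged from 0.526 to 2.15 with a median of 1.54 in the contralateral and from 0.802 to 3.35 with a median of 1.70 in the trained muscles, with overlap at every time point. Its differences of 0.09, 0.12, 0.24 and 0.16 (SE 0.20 each) did not pass (limma adjusted p = 0.765, 0.709, 0.442 and 0.617). The highest and the lowest trained value both came from the 20 day group.

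Nfatc4 has 2 transcripts, Nfatc4-201 at chr15:34493163-34502239 and Nfatc4-202 at chr15:34493138-34504327, and neither reached a value of 1 in any muscle. The sum ranged from 0.129 to 0.580 in the contralateral muscles. It stood at 0.280, 0.973 and 0.616 after 2 days of training, at 0.937, 0.999 and 1.16 after 10 days, at 0.611, 1.12 and 0.403 after 20 days and at 0.669, 0.559 and 0.583 after 30 days. The 3 muscles at 10 days all lay above the contralateral range. With no filter on low values, so that Nfatc4 entered the test, the differences were 0.25, 0.59, 0.33 and 0.25 (limma adjusted p = 0.129, 5.28e-04, 0.0569 and 0.147), and 10 days alone passed.

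Read as a composition, the NFAT mRNA pool changed in favour of Nfatc1 and away from Nfatc3. Nfatc1 made up 41.5% ± 4.35 of the summed Nfatc1 to Nfatc4 value in the contralateral and 49.6% ± 3.97 in the trained muscles (SD, n = 12), and it was higher in 12 of 12 rats. Nfatc3 made up 50.8% ± 5.41 and 39.5% ± 5.28, and it was lower in 12 of 12 rats. Both gave an exact two-sided permutation p of 0.000488, the smallest that 12 sign flips allow (adjusted p = 0.00146). In order of time, the differences in the Nfatc1 share were 4.24, 9.99, 8.71 and 9.70 percentage points. Those in the Nfatc3 share were −7.20, −15.7, −10.7 and −11.7 points. Shares of 1 sum are bound to each other and are not separate results. The Nfatc1 value itself, unlike its share, was higher in 9 of 12 rats. At 2 days its trained mean was 96.1% of the mean of the 12 contralateral muscles.

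Nfatc4 held 1.46% ± 0.524 of the pool in the contralateral and 3.24% ± 1.33 in the trained muscles, higher in 11 of 12 rats (exact permutation p = 0.000977, adjusted p = 0.00146). Nfatc2 held 6.21% ± 1.86 and 7.61% ± 2.15, higher in 8 of 12 rats, which did not pass (exact permutation p = 0.0845). Within Nfatc1, transcript Nfatc1-202 held 8.05% ± 4.32 of the sum in the contralateral and 14.2% ± 4.91 in the trained muscles, higher in 10 of 12 rats (exact permutation p = 0.00244, adjusted p = 0.00293). Neither Nfatc1 transcript passed alone at any time point. Reads that fit both transcripts were divided by estimation, and Nfatc1-202 was estimated at practically 0 in 2 contralateral muscles.

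**Figure D4:**
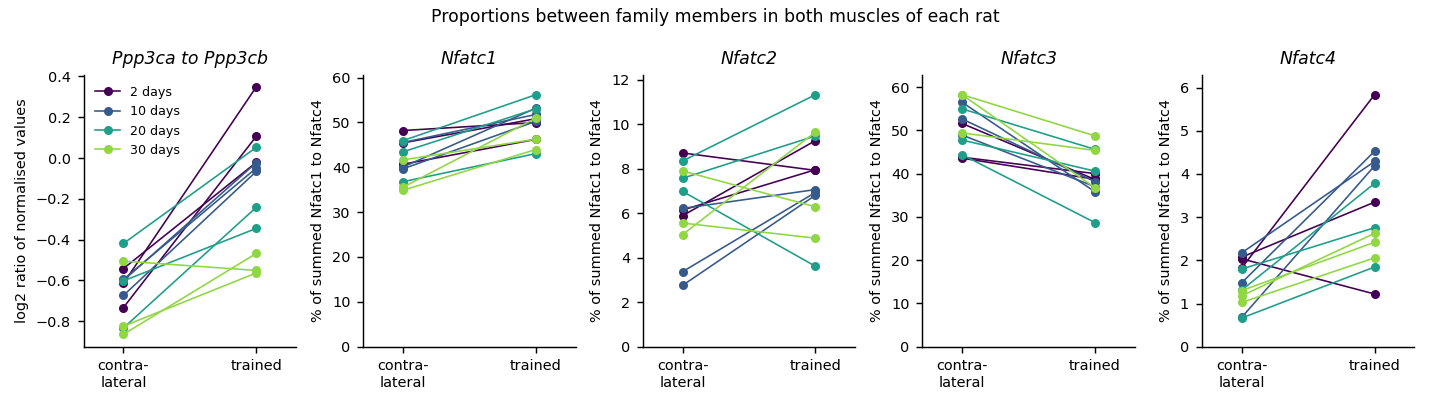
Log2 ratio of Ppp3ca to Ppp3cb (left panel) and share of each NFAT gene in the summed Nfatc1 to Nfatc4 value (percent, the other panels) in both muscles of each of the 12 rats, joined by lines coloured by days of training. Lines rise in 11 of 12 rats for the ratio and in 12 of 12 for Nfatc1, and fall in 12 of 12 for Nfatc3.

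Averaged over the 12 pairs in the fit with the animal as a block, 5 of the 6 genes passed, where 43.4% of all genes tested passed. The mean differences were 2.43 for Rcan1 (SE 0.10, limma adjusted p = 1.35e-09), −0.70 for Ppp3cb (SE 0.07, 3.16e-06), −0.37 for Nfatc3 (SE 0.07, 6.91e-04), −0.20 for Ppp3ca (SE 0.05, 0.00711) and 0.20 for Nfatc1 (SE 0.07, 0.0238). Nfatc2 stood at 0.15 (SE 0.10, limma adjusted p = 0.235). Nfatc1 thus passed over all rats and at no single time point.

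The study asked how the response to a session alters as training goes on, and the trained groups at 30 and 2 days were therefore compared directly. Of the 6 genes 3 passed, where 15% of all genes did. Rcan1 was lower at 30 than at 2 days by 1.09 (SE 0.28, limma adjusted p = 0.0104). Ppp3cb was higher by 0.56 (SE 0.15, adjusted p = 0.0104) and Nfatc3 by 0.51 (SE 0.16, adjusted p = 0.0375). In each case the trained level at 30 days lay nearer to the mean of the pooled contralateral muscles. For Nfatc3 this did not hold against the other leg of the same rat, where the 30 against 2 day difference was 0.03. Contralateral Nfatc3 itself stood at 9.55 to 10.1 at 2 days and at 12.7 to 16.5 at 30 days. No pair of neighbouring time points (2 and 10, 10 and 20, 20 and 30 days) gave a difference that passed in any of the 6 genes, where 1.93%, 0.17% and 0.0357% of genes passed. At an unadjusted p under 0.05 stood Rcan1 between 10 and 20 days (−1.08, limma adjusted p = 0.123) and Ppp3cb between 20 and 30 days (0.33, limma adjusted p = 0.697).

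As deposited, without rescaling, the difference was −1.42 for Rcan1 (limma adjusted p = 0.00109), 0.23 for Ppp3cb (0.339) and 0.20 for Nfatc3 (0.408), so that Rcan1 alone of the 3 passed, and Ppp3ca passed with −0.44 (0.0488). In those values the median of all genes lay at −0.27 in this comparison.

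When each trained muscle was set against the other leg of its rat instead, none of the 3 passed: the 30 against 2 day difference was −0.46 for Rcan1 (limma adjusted p = 0.421), 0.41 for Ppp3cb (0.280) and 0.03 for Nfatc3 (0.948). Contralateral Rcan1 stood at 32.4, 40.1 and 47.5 at 2 days, at 36.7, 42.0 and 39.7 at 10 days, at 25.4, 24.8 and 37.2 at 20 days and at 21.9, 27.6 and 26.6 at 30 days. The 30 day contralateral values all lay below those of 2 and 10 days, although the F test over the 4 contralateral groups did not pass in limma (adjusted p = 0.529). None of the 6 genes passed that limma F test (lowest adjusted p = 0.458), where 0.152% of all genes passed, and 2 of them, Nfatc3 and Rcan1, had an unadjusted p under 0.05. The share of mitochondrially encoded transcripts given above was also highest in the trained muscles at 30 days, and its part in these differences was not tested. In the gene-level table, which was not rescaled, the 30 against 2 day difference was −1.69 for Rcan1 (limma adjusted p = 7.16e-05). For Ppp3cb it was −0.070 there (limma adjusted p = 0.708). The transcript-level difference of Ppp3cb was positive both with rescaling and as deposited, at 0.23 in the latter.

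The partners of the pathway were taken from a list of 30 genes, 28 of which were analysed and 26 tested. At 2 days 2 were higher and 10 lower, at 10 days 1 and 8, at 20 days 0 and 7 and at 30 days 0 and 5. Among all genes tested, 15.4%, 15.6%, 11.7% and 11.1% passed as higher and 13.5%, 13.3%, 9.64% and 9.46% as lower. The fit with the animal as a block gave 3, 0, 0 and 0 higher and 6, 6, 6 and 5 lower in order of time. In that fit 2417, 2252, 1944 and 1377 of all 11196 genes tested passed in either direction. The median differences of the list were −0.16, −0.03, −0.10 and −0.09, beside −0.01, −0.03, −0.03 and −0.01 over all genes.

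Of the further calcineurin subunits, Ppp3r1, the regulatory subunit, fell at 2, 10 and 20 days (−0.48, −0.41 and −0.28, limma adjusted p = 5.68e-04, 0.00218 and 0.0418) and stood at −0.25 at 30 days (adjusted p = 0.0734). Ppp3cc, the gamma catalytic subunit, fell at 2 and 10 days (−0.30 and −0.52, adjusted p = 0.0474 and 0.00111). In the block fit Ppp3cc passed at neither time (adjusted p = 0.104 and 0.0690), and Ppp3r1 did not pass at 20 days (adjusted p = 0.140). As deposited, Ppp3r1 passed at 2 and 30 days and not at 10 and 20 days (limma adjusted p = 0.0932 and 0.130). Calm2, which encodes calmodulin, fell at all 4 time points (−0.51, −0.68, −0.74 and −0.76, highest adjusted p = 6.19e-05).

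None of the other tested genes for proteins that bind, restrain or anchor calcineurin rose as Rcan1 did. Rcan2, of the same family, fell at 2 days (−0.97, limma adjusted p = 1.66e-05) and stood at −0.32, −0.20 and −0.09 later. The calsarcins, Z-disc proteins that tether calcineurin, fell in part: Myoz1 at 2 and 10 days (−0.34 and −0.38, adjusted p = 0.0157 and 0.00779) and Myoz3 at 2 and 20 days (−0.75 and −0.80, adjusted p = 0.00795 and 0.00619). Myoz2 and Cabin1, an inhibitor that binds in the nucleus, passed at no time. Myoz1, in the block fit, passed at neither time (−0.40 at both, limma adjusted p = 0.0576 and 0.0563).

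Of the 10 kinases that phosphorylate NFAT proteins, 4 fell at some time and none rose. Among all genes tested, 13.5%, 13.3%, 9.64% and 9.46% passed as lower at 2, 10, 20 and 30 days. Dyrk2 (−0.77, −0.99, −0.93 and −0.99), Mapk14, which encodes p38 alpha (−0.54, −0.61, −0.45 and −0.47), and Mapk9, which encodes a JNK (−0.52, −0.55, −0.58 and −0.38), fell at all 4 time points, with a highest limma adjusted p of 0.0136. Gsk3a fell at 10, 20 and 30 days (−0.36, −0.27 and −0.45, adjusted p = 0.00292, 0.0255 and 6.66e-04). Gsk3b, Dyrk1a, Dyrk1b, Csnk1a1, Csnk1e and Mapk8 passed at no time. Dyrk2, in the block fit, did not pass at 2 days (−0.086, limma adjusted p = 0.741) nor Gsk3a at 20 days (−0.20, adjusted p = 0.282), and Gsk3b rose at 2 days (0.57, adjusted p = 0.0456). As deposited, Csnk1e rose at 2 days (0.43, adjusted p = 0.0372). Of the transport factors, the importin Kpnb1 and the exportin Xpo1 rose at 2 days (0.47 and 0.34, adjusted p = 1.15e-04 and 0.0160). Of the Homer scaffolds, Homer1 fell at 2 days (−0.54, adjusted p = 0.0316) and Homer3 rose at 10 days (0.56, adjusted p = 0.00706), and neither passed with the animal as a block (adjusted p = 0.171 and 0.164), in which Homer1 fell at 20 days (−0.66, adjusted p = 0.0249).

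**Figure D5:**
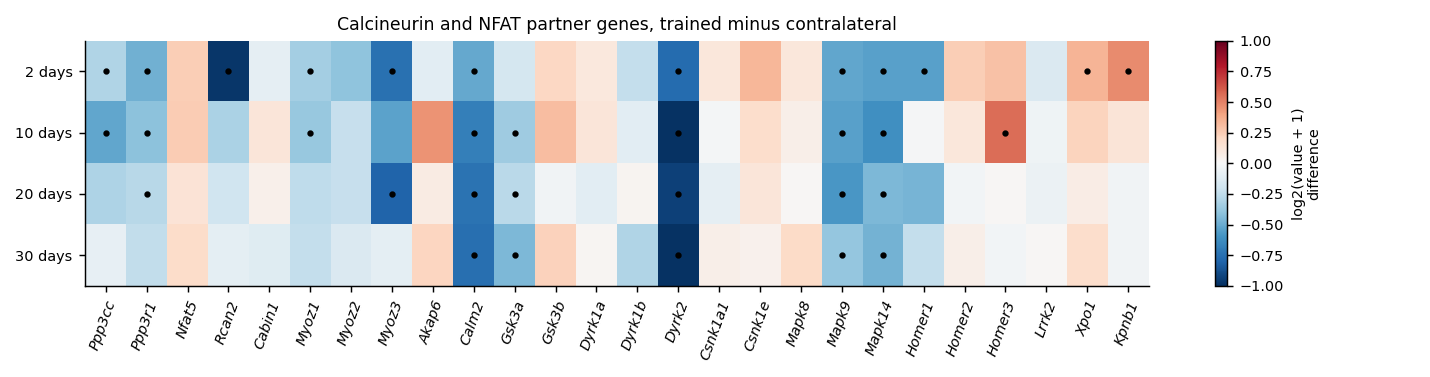
Fitted log2(value + 1) difference of the 26 tested partner genes at each time point, blue for lower and red for higher in trained muscle, with a dot where the adjusted p was under 0.05. Calm2, Dyrk2, Mapk9 and Mapk14 are lower at all 4 times, and the 3 dots on red are Xpo1 and Kpnb1 at 2 days and Homer3 at 10 days.

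Of 13 genes for calcium entry and release 7 were tested. Orai1, the pore of store-operated calcium entry, rose at 2 days (0.73, limma adjusted p = 0.00932). Its calcium sensors Stim1 (−0.33 and −0.35, adjusted p = 0.00281 and 0.00212) and Stim2 (−0.50 and −0.49, adjusted p = 5.38e-04 and 8.77e-04) fell at 20 and 30 days. Ryr1, the calcium release channel, fell at 2 days (−0.74, adjusted p = 0.0150), Cacna1s, the voltage sensor, at 2 and 20 days (−0.36 and −0.48, adjusted p = 0.0467 and 0.0113) and Orai3 at 30 days (−0.37, adjusted p = 0.0328). Across the list 1 was higher and 2 lower at 2 days, none passed at 10 days and 3 were lower at each of 20 and 30 days. Of all genes tested, 28.9%, 28.9%, 21.4% and 20.6% passed in either direction in order of time. In the block fit 1, 0, 0 and 0 genes of the list were higher and 1, 1, 4 and 1 lower in order of time. Ryr1 and Cacna1s then did not pass at 2 days (limma adjusted p = 0.0945 and 0.190) nor Stim1 and Orai3 at 30 days (adjusted p = 0.157 and 0.0943). In that fit Orai3 fell at 2 and 10 days (adjusted p = 0.0498 and 0.0441) and Ryr1 at 20 days (−0.63, adjusted p = 0.0249).

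Of the 10 slow fibre genes, the group for which calcineurin is best known, 1 was higher and 5 lower at 2 days, 2 and 1 at 10 days, and 1 and 0 at each of 20 and 30 days. Beside these counts, 28.9%, 28.9%, 21.4% and 20.6% of all genes tested passed in either direction. Myh7, the slow myosin heavy chain, fell at 2 days (−0.90, limma adjusted p = 0.0111) and stood at −0.47, −0.24 and −0.56 later, which did not pass. Casq2, a calsequestrin of slow fibres and heart, rose at 2 and 10 days (1.29 and 1.40, adjusted p = 7.07e-04 and 2.71e-04). Mb, myoglobin, fell at 2 days (−0.64, adjusted p = 5.32e-04) and rose at 10, 20 and 30 days (0.57, 0.74 and 0.65, highest adjusted p = 0.00156). With the animal as a block, 1 gene was lower at 2 days and 0 at 10 days. Myh7 then did not pass at 2 days (−0.56, limma adjusted p = 0.0750) and fell at 20 days (−0.67, adjusted p = 0.0434). Averaged over the 12 pairs in that fit, Casq2 (0.70) and Mb (0.33) were higher and passed. Myh7 (−0.54), Myl3 (−0.46), Atp2a2 (−0.42), Tnnt1 (−0.41), Tnni1 (−0.38) and Tpm3 (−0.30) were lower and passed (highest limma adjusted p = 0.0391). Myl2 (−0.24) and Tnnc1 (−0.15) did not pass. Of all genes tested, 43.4% passed in this average.

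Of 12 transcription factors that act with NFAT proteins on DNA, 9 were tested, with 5 higher and 0 lower at 2 days, 5 and 1 at 10 days, 3 and 1 at 20 days and 2 and 1 at 30 days. Among all genes tested, 15.4%, 15.6%, 11.7% and 11.1% passed as higher and 13.5%, 13.3%, 9.64% and 9.46% as lower. The AP-1 subunit Fos rose by 4.30, 3.59, 3.11 and 2.49 and Junb by 2.16, 2.12, 2.78 and 1.59 (highest limma adjusted p = 0.00152). Jun rose at 2 and 10 days (1.77 and 0.81, adjusted p = 8.15e-08 and 0.00140) and Fosl1 at 2, 10 and 20 days (1.57, 1.16 and 0.50, highest adjusted p = 0.0156). Mef2c rose at 2 and 10 days (0.31 and 0.64, adjusted p = 0.0167 and 1.97e-05). Maf fell at 10, 20 and 30 days (−0.74, −1.17 and −1.19, highest adjusted p = 0.00366). Every one of these calls also passed in the block fit, and Maf at 2 days (−0.50, limma adjusted p = 0.0307) and Gata2 at 20 days (0.40, adjusted p = 0.0400) passed too. Like Rcan1, Fos had its smallest difference at 30 days.

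The genes whose trained minus contralateral differences were most like those of Rcan1 over the 12 rats were Arid5a (Pearson r = 0.940), Dlgap4 (0.934), Mgrn1 (0.929), Pgpep1 (0.927) and Slc6a6 (0.918), and 0.956% of genes had an r above 0.8. Pearson's r follows how the differences vary between rats, and not their level or direction. Arid5a differed by 1.31, 1.10, 0.52 and 0.34 and Dlgap4 by 1.05, 1.03, 0.69 and 0.42 at the 4 time points. Mgrn1 differed by 0.81, 0.77, 0.55 and 0.53, Pgpep1 by 0.31, 0.49, 0.18 and 0.0042 and Slc6a6 by 0.25, 0.30, −0.18 and 0.29. For Ppp3cb the genes with the highest r were Dnajc27 (0.953), Txlna (0.909) and Cdadc1 (0.887), and for Nfatc3 LOC102552640 (0.954), Gbe1 (0.941) and Brms1l (0.870). Gbe1 was higher in trained muscle, by 0.80, 0.63, 0.78 and 1.05, while Nfatc3 was lower. LOC102552640 (−0.19, −0.82, −0.22 and −0.22) and Brms1l (−0.49, −0.61, −0.57 and −0.43) were lower. For Ppp3ca they were Pdxdc1 (0.940), Psme3ip1 (0.922) and Zfyve27 (0.911). For Nfatc1 they were AABR07026654.1 (0.881), Rmnd5a (0.877) and Nop9 (0.873), and for Nfatc2 Fbxl18 (0.891), Smarcc1 (0.868) and Tnrc6b (0.865). These are descriptions over 12 rats that share the scaling of their libraries, picked as the highest among the genes tested, and carry no test.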

How the data were processed

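RNA-seq of polyadenylated RNA was done by the authors on 24 tibialis anterior muscles of 12 rats, the 3 rats of a group being separate animals. Reads were trimmed and mapped by the authors with STAR to Rnor_6.0 (rn6), and Partek Flow assigned them to the Ensembl transcript models. What the authors deposited are TPM-type values for 20027 transcripts, each library scaled to a total of 634431, and a gene-level table of 4635 genes in units of signal, scaled by gene length and library. A further deposited table of the authors' own DESeq2 comparisons was not used. None holds counts, so no count model was run. The study's methods state a minimum number of reads for all libraries, and the values used here do not keep the depth of each.

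Each library was rescaled by its median-of-ratios factor (16230 transcripts, factors 0.778 to 1.14) and transcripts were summed per gene symbol. The gene-level table was fitted as deposited, without this rescaling. Features at 1 or more in at least 3 muscles were kept (11196 genes, 13452 transcripts). In limma 3.58.1 (R 4.3.3), log2(value + 1) was modelled in 5 groups, 12 contralateral and 3 trained muscles per time point. Ratios and shares were tested by exact sign flips over the 12 rats with numpy 2.4.6. Likeness was Pearson's r over the 12 paired differences. Scripts were tested on simulated data. Of 276 pairs of libraries, 0 were identical. Promoter sequences and gene lengths came from RefSeq tables of GRCr8.

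The labels give each rat a number shared by both legs, and residuals from the group means correlated more within a rat (median r = 0.174, 8 of 12 over 0.1) than between rats (−0.00964). Genes named are the 7 members, and those of the lists of partners, calcium channels, slow fibre genes, NFAT partners and cell markers that passed or whose role is described, with the 5 genes most like Rcan1 and 3 for each other gene. Markers of endothelium, smooth muscle and pericytes, satellite cells and Schwann cells are left unnamed, although some of them passed. One partner gene is not reported here and was left out of the list's counts. Members and lists were chosen with earlier results of these data known. A share of Rcan1 isoforms had been planned and could not be computed from 1 transcript. The alternatives were values as deposited, a pseudocount of 0.1, no filter, the animal as a block, time-matched controls, an intensity trend, a threshold of 0.01 and each muscle left out. The gene-level table, the mean over 12 pairs and the alternatives for the listed genes were added after the data had been seen.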

Additional observations from a re-analysis of the deposited data

Results flagged for a closer look

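In 3 genes the trained muscles at 30 days differed from those at 2 days by the limma test of that difference. The difference was −1.09 for Rcan1, 0.56 for Ppp3cb and 0.51 for Nfatc3 on the log2(value + 1) scale. For Rcan1 it was lost without trained replicate 2 (adjusted p = 0.0700) or 3 (0.0549) at 2 days or replicate 3 at 30 days (0.0836). For Ppp3cb it was lost without replicate 2 at 2 days (0.113) or replicate 3 at 30 days (0.0686). For Nfatc3 it was lost without replicate 2 (0.192) or 3 (0.113) at 2 days or replicate 2 (0.0909) or 3 (0.168) at 30 days. The values relative to the other leg are given above, and with them none of the 3 passed.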

How the results depend on the processing

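Rcan1 at 4 time points and Ppp3cb at 2, 10 and 20 days passed under all alternatives run. The count of genes passing at 20 days, 4, became 2 in the values as deposited, with the replicate block (the animal as a block), with time-matched controls and at the 0.01 threshold, and ranged from 2 to 4 when single muscles were left out. The count at 30 days, 3, became 1 with time-matched controls and at the 0.01 threshold, and ranged from 1 to 3 when single muscles were left out. The count of transcripts at 30 days, 3, became 1 with the replicate block, with time-matched controls and at the 0.01 threshold, and ranged from 1 to 3 with single muscles left out. The count of transcripts at 10 days, 3, became 5 with no filter. Of the 3 genes that differed between 30 and 2 days, 0 passed with the replicate block, 0 at the 0.01 threshold and 1, Rcan1, in the values as deposited, and 0 to 3 passed with single muscles left out. The share of Nfatc2 rose by 1.83 points with an exact permutation p of 0.0215 without the rat of replicate 1 at 20 days, and the differences ranged from 1.10 to 1.83 points with single rats left out. The Ppp3cb difference between 30 and 2 days changed sign in the gene-level table, which was not rescaled. It stood there at −0.070, and at −0.043 with the replicate block, and the cause was not tested. Among the listed genes, cell markers included, 126 calls at single time points were made. The replicate block lost 35 of them and added 13, time-matched controls lost 45 and added 1, and the values as deposited lost 15 and added 10, and none of the 126 changed sign in these fits. For the 6 members the replicate block changed no call other than those given above. Values as deposited moved the median of all genes at 30 days from −0.01 to −0.18. The depth behind a value is not kept in values of this kind, and 3 muscles per trained group limit each time point.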
